A study of Mus musculus with 29 samples.

Results

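The 10 transcription factors described here are known for basal and stem cell states of epithelia: Trp63, Sox2, Sox4, Sox9, Tfap2a, Tfap2c, Klf4, Myc, Stat3 and Foxm1. They were taken by symbol, with no threshold on a measured value, and are 10 of the 35199 genes in each table. All 10 passed the filter on low values in every comparison. RNA-seq had been made to ask how an activated Pparg alters basal urothelial cells and the tumors that arise from them. Mutants (K5VP16;Pparg+/- in the labels) carried the VP16 activator fused to Pparg1 in the Rosa26 locus behind a STOP cassette. Tamoxifen-inducible Cre driven by the Krt5 promoter removed the cassette, so the protein was made in basal cells and their descendants, in most but not all of them, beside the endogenous gene.

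The first groups were Gfp-positive basal cells sorted from young adult mice 4 days after tamoxifen, with 4 control and 5 mutant libraries, untreated otherwise. The labels give the controls as wild type, and the study's text names K5;mTmG controls for the sorted cells. The remaining groups came from mice that had drunk the bladder carcinogen BBN (0.05% in water). Mutants and controls received tamoxifen into the bladder after 1 month of BBN, and tumors were taken about 4 months later, so the labels count 5 months of BBN and the titles 4 months. Tumor tissue was taken by laser capture: 3 basal tumors of mice labelled wild type, 3 luminal tumors of mutants, and, from mixed lesions of mutants, 3 luminal domains (labelled top) and 3 basal-like domains (labelled bottom). The basal tumors and the mutant lesions thus differed in genotype and shared the carcinogen. Libraries of untreated and BBN-treated wild-type mice at 1 month were not analysed here.

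p63, the product of Trp63, is the factor that basal cells of stratified epithelia need in order to form and to hold their place, and it drives keratins, hemidesmosome and desmosome genes. SOX2, KLF4 and MYC belong to the set of factors that can return differentiated cells to pluripotency, and SOX9 and SOX4 mark progenitors in many organs. AP-2 proteins (Tfap2a, Tfap2c) act in surface ectoderm and epidermis. STAT3 carries signals of the IL-6 cytokine family to the nucleus in injured and inflamed epithelium, while FOXM1 switches on the genes of G2 and mitosis in dividing cells.

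Values are the authors' normalized counts, which are comparable between libraries of 1 table but not between genes, because they are not divided by gene length. How many reads lie behind each value is unknown, since only a target depth is given in the methods. Normalized counts summed to between 36520200 and 41435700 per 4-day library and, in the table of 8 tumor libraries, to between 41697200 and 44654300 in basal tumors and between 51007900 and 53253000 in luminal tumors. Basal tumors had 14584 to 15042 genes at 10 or more and 6.76% to 8.97% of the total in their top 10 genes, whereas luminal tumors had 13513 to 13796 genes and 11.7% to 14.8%. These values move with the tumor comparisons, and their part in them was not tested. Differences are log2 fold changes of normalized count + 1 from limma, with a standard error (SE), and a gene was called when its Benjamini-Hochberg adjusted p over all genes tested was under 0.05. Nothing in the columns tells whether libraries of a group came from separate mice, so the p-values measure the spread between these libraries. The 3 tumor tables hold partly the same libraries: the basal tumors stand in both comparisons with luminal tissue, and the luminal domains in 3 comparisons. In bulk tissue, fewer cells of a type and less RNA per cell cannot be told apart.

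As a check of the transgene, Fabp4, a direct Pparg target, had 207 to 467 normalized counts in controls, and 4-day mutants had 4969 to 30598 (log2 fold change 4.64, SE 0.49, limma adjusted p = 0.00171). Pparg itself was not called at 4 days, at 9381 to 9999 in controls and 6111 to 9032 in mutants (log2 fold change -0.36, adjusted p = 0.126). In basal tumors it lay between 13.02 and 126, and in luminal tumors between 3579 and 8632. Fabp4 did not separate the tumors, at 75.5, 1082 and 48304 in basal tumors, 31727, 310097 and 197271 in luminal tumors and 316213 and 5991 in the luminal domains of that table. All 7 basal urothelial markers were detected in every library except Krt17, which was listed at 0 in 2 of the 5 mutant libraries at 4 days. Their summed normalized counts were 290212 to 329118 in sorted controls and 169055 to 283182 in mutants. Of the 7, 3 were positive and 4 negative at 4 days. Cd44 alone was called there, higher in mutants, against 1.77% of genes called higher. In luminal against basal tumors 6 of the 7 were negative (54% of all genes were). There 3 fell (Krt17, Itgb4 and Itga6), against 0.938% of genes called lower. In luminal tumors all 10 luminal markers had positive log2 fold changes against basal tumors. Of these 10, 5 rose (1.26% of genes were called higher), including the uroplakin genes Upk3a (9.99) and Upk1a (9.63). Y-linked genes, averaged as log2 values, lay between 11.05 and 11.11 in 3 controls and between 5.16 and 5.91 in all mutants and the remaining control (5.59), so this score divides the 4-day libraries nearly as the genotype does. It was high in every tumor library, between 9.73 and 10.9.

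In sorted basal cells, none of the 10 factors was called 4 days after activation, against 2.85% of the 16413 genes tested. The clearest differences were a higher Stat3 (1.58-fold) and a lower Trp63 (1.68-fold), with limma adjusted p of 0.0723 and 0.0835. At an unadjusted p under 0.05, 5 of the 10 stood out, against 20.8% of all genes. These were Trp63 and Tfap2a on the lower side, where 9.01% of genes lay, and Tfap2c, Stat3 and Foxm1 on the higher side, with 11.8% of genes. Stat3 alone did not overlap between the groups, against 4.67% of genes that were higher in every mutant. The median log2 fold change of the 10 was -0.07, and that of all genes 0.0045.

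In luminal tumors, 9 of the 10 factors had negative log2 fold changes against basal tumors, with a median of -1.23, whereas that of all genes was -0.11. None of the 10 was called in the fit of tumors and domains as 3 groups, against 2.2% of the 15357 genes tested. Trp63, Sox4, Sox9 and Myc had an unadjusted p under 0.05 on the lower side, as did 9.7% of genes. Sox9 and Myc were below the range of the basal tumors in all 3 luminal tumors, as were 11.6% of genes. When the study's own grouping of 3 basal against 5 luminal libraries was fitted, Sox9 (log2 fold change -2.43, adjusted p = 0.0341) and Myc (-1.35, adjusted p = 0.0489) fell. That fit called 513 of 15357 genes, 135 of them lower. Tfap2c was the exception in direction, at 1.92 (SE 1.07, adjusted p = 0.38), and it ran from 0.72 to 2.87 with a library left out.

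In the luminal domains of mixed lesions, Sox9 fell 5.78-fold against basal tumors, the only factor of the 10 called, against 0.824% of the 14921 genes tested that were called lower and 2.53% called in either direction. This call was lost when any 1 of the 6 libraries was left out, and without either of 2 luminal domains no gene at all was called. Trp63, Sox9, Klf4 and Myc were lower in all 3 luminal domains than in any basal tumor, against 12.8% of genes. Sox2, Sox9 and Myc had an unadjusted p under 0.05, with 9.45% of genes on that side. The median of the 10 was -0.64, and that of all genes was 0.0097. Between the basal-like and luminal domains no gene was called (0% of 14874), 757 genes (5.09%) had an unadjusted p under 0.05, and a fit without a variance trend called 20. None of the 10 was among those 757. Of the 10, 8 were higher on average in the basal-like domain (50.7% of all genes were). Their median was 0.42, and that of all genes was 0.0093. Foxm1 alone was higher in every basal-like domain, against 5.62% of genes.

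Markers of stromal and immune cells moved with these groups in part. The summed normalized counts of 7 fibroblast markers ran from 45144 to 67706 in basal tumors, from 5564 to 29595 in the 2 luminal domains of that table and from 212 to 17149 in luminal tumors. With all 3 luminal domains the sums were 46663 to 71458 in basal tumors and 5298 to 31667 in domains. Of those 7 markers all were negative in luminal against basal tumors and 3 fell (Col1a1, Col1a2 and Pdgfrb), against 0.938% of genes called lower. Lum and Pdgfrb were listed at 0 in at least 1 luminal tumor. The 6 smooth muscle markers summed to between 6010 and 51208 in basal tumors and to between 150 and 1254 in luminal tumors, where 3 fell and Des was listed at 0 in all 3. In the table of all luminal domains they summed to between 6298 and 57231 in basal tumors and to between 1430 and 1911 in domains. There all 6 were negative and 3 were called lower, against 0.824% of genes. The 8 leukocyte markers summed to between 3140 and 11116 in basal tumors and to between 569 and 2094 in luminal tumors, and with all 3 luminal domains to between 3351 and 11327 in basal tumors and between 2219 and 3963 in domains. The 6 endothelial markers were all negative in luminal tumors (54% of all genes were). Of them 4 did not overlap, against 11.6% of genes that were lower without overlap. In the table of all luminal domains, however, they summed to between 1904 and 3857 in basal tumors and between 1884 and 3972 in domains, with 4 positive. At 4 days the fibroblast sum was 11668 to 84728 in controls and 30691 to 217844 in mutants. All 7 markers were positive there (50.5% of all genes were). Lum alone was called (2.70, SE 0.54, limma adjusted p = 0.0303), against 1.77% of genes called higher. The 4-day libraries were made from cells sorted for Gfp, and the purity of the sort was not tested. The part of stromal and immune cells in the levels of the 10 factors was not tested.

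**Figure D1:**
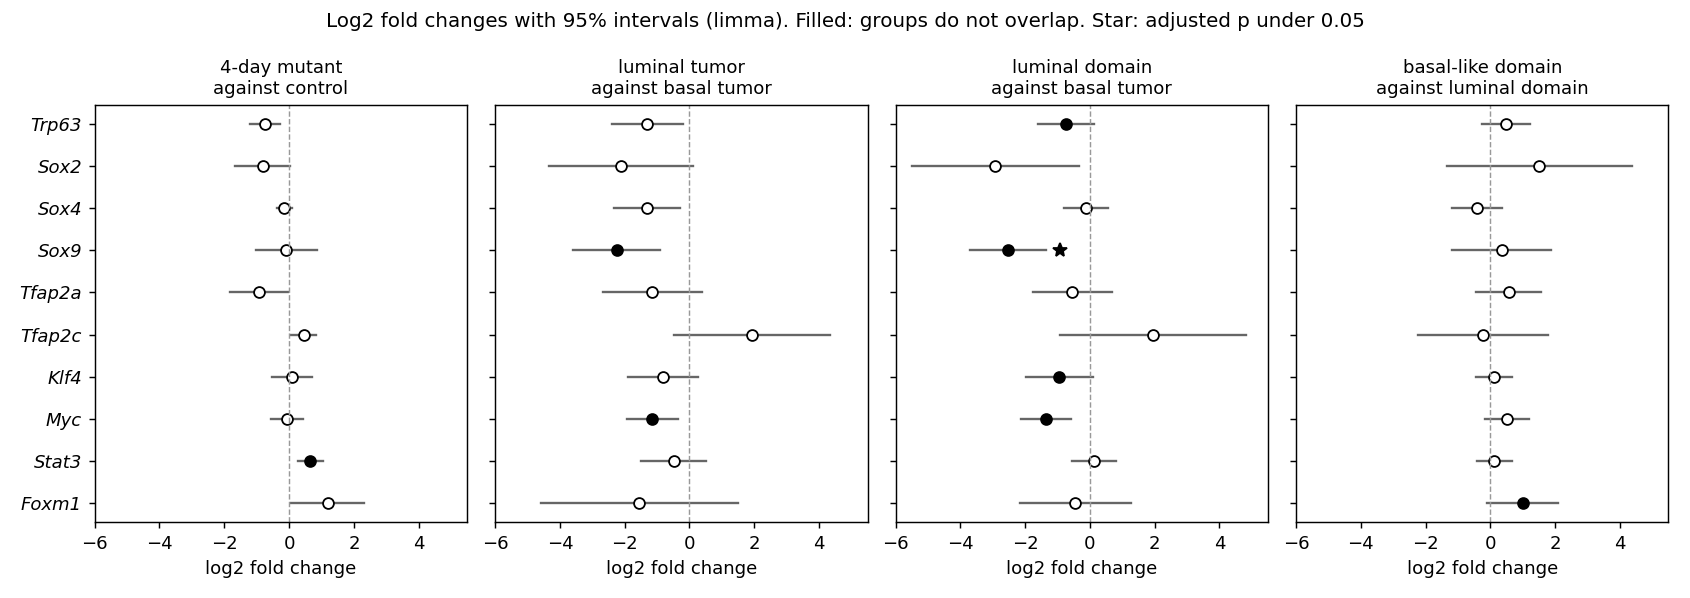
Log2 fold changes of the 10 factors (horizontal axis, with 95% confidence intervals from limma) in 4 comparisons; filled points mark factors whose groups do not overlap, and the star marks an adjusted p under 0.05. Sox9 in the luminal domain (-2.53) carries the only star, which is lost when any 1 library is left out, and 9 of the 10 points for luminal against basal tumors lie left of 0.

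Trp63 (chromosome 16, 25683763 to 25892088 in the RefSeq annotation of GRCm38.p6) encodes p63. In sorted controls it was counted at 27230, 34364, 36766 and 34480, and in mutants at 12606, 21589, 17541, 27800 and 21961. Of the 5 mutants 4 lay below every control, and 1 mutant (27800) lay above the lowest control (27230). The means were 33210 ± 4137 (SD, n = 4) and 20300 ± 5645 (SD, n = 5), a log2 fold change of -0.75 (SE 0.21, 95% interval -1.21 to -0.28, limma adjusted p = 0.0835). Without the mutant library at 27800 it was called (-0.87, adjusted p = 0.0472), and with the Y-linked score as a covariate it was -0.55 (adjusted p = 0.700). The lowest control is the library whose Y-linked score is as low as in the mutants.

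In the table of 8 tumor libraries Trp63 was counted at 3758, 4589 and 8824 in basal tumors, at 2173, 1212 and 3848 in luminal tumors, and at 3405 and 2435 in the 2 luminal domains of that table. The luminal tumor at 3848 just exceeded the lowest basal tumor, and the log2 fold change of luminal against basal tumors was -1.30 (SE 0.49, limma adjusted p = 0.2). In the table with all 3 luminal domains these stood at 3696, 2678 and 3978, beneath basal tumors at 4020, 4814 and 9334. The groups were thus apart, although the nearest pair (3978 and 4020) nearly met, and the log2 fold change was -0.73 (SE 0.37, adjusted p = 0.313). With a library left out this value ran from -0.98 to -0.37. Basal-like domains had 4970, 3212 and 6846 against 3663, 2688 and 3989 in the luminal domains of their own table, a log2 fold change of 0.49 (SE 0.32, adjusted p = 0.935) with overlap. Ordered by mean in the 8-library table, basal tumors (5724 ± 2717, SD, n = 3) were followed by luminal domains (2920) and luminal tumors (2411 ± 1334, SD, n = 3), and these last neighbours overlapped.

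Genes whose log2 values followed Trp63 most closely over the 9 sorted libraries were Nudt6 (Pearson r 0.97), Hpgd (0.97) and Jag2 (0.97), among 14613 genes. Over the 8 tumor libraries they were Stmn2 (0.99), Shisa4 (0.98) and Khsrp (0.97), among 13685 genes. These values describe libraries that share a table and its normalization, and the highest of so many are high by selection.

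Known p63 target genes, a list of 20, were measured beside the factor. At 4 days 12 had negative log2 fold changes (49.5% of all genes did), and 2 fell, against 1.08% of genes that were called lower. Col17a1, a hemidesmosome collagen, had 13443 to 28513 normalized counts in controls and 5358 to 12404 in mutants (log2 fold change -1.34, SE 0.27, limma adjusted p = 0.0315). Jag2, a Notch ligand, had 15211 to 21266 in controls and 5960 to 12633 in mutants (-1.09, SE 0.21, adjusted p = 0.0269). Neither gene overlapped between the groups. Leaving out each library in turn left between 0 and 3 of the 20 called, with 0 without any of the 3 controls of high Y-linked score and without the mutant highest in Stat3, and 1 without the mutant lowest in Trp63. The list holds Krt5, Krt14, Itga6 and Itgb4, which are also basal markers.

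In luminal tumors 18 of the 20 p63 targets were negative against basal tumors (54% of all genes were), the median log2 fold change was -2.03, and 5 fell, against 0.938% of genes. Lama3, a chain of laminin-332, fell most among these (-3.57, SE 0.55, limma adjusted p = 0.0256), from 2865 to 7543 normalized counts in basal tumors to between 285 and 525 in luminal tumors. Col17a1 (-3.19, SE 0.58, adjusted p = 0.036) and the integrin subunits Itgb4 (-2.34, SE 0.39, adjusted p = 0.0294) and Itga6 (-2.19, SE 0.43, adjusted p = 0.0398) fell as well, as did the desmosome gene Pkp1 (-2.14, SE 0.46, adjusted p = 0.0491). The 5 calls were all lost without the basal tumor lowest in Trp63, without the one highest in it, and without either of the 2 luminal tumors lower in Trp63, where the list had 0 calls. It had 1 call without the remaining basal tumor and 8 without the luminal tumor highest in Trp63.

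In luminal domains 13 of the 20 p63 targets were negative against basal tumors (49.6% of all genes were), with a median of -0.74, and Itga6 alone fell (-1.52, SE 0.23, adjusted p = 0.0271, with 0.824% of genes called lower), from 11482 to 13378 in basal tumors to between 4136 and 4908. The list had 2 calls without the basal tumor highest in Stat3 and 0 without any other library. In basal-like against luminal domains 17 of the 20 were positive (50.7% of all genes were), with a median of 0.21, and none was called. With a library left out 15 to 20 were positive there.

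**Figure D2:**
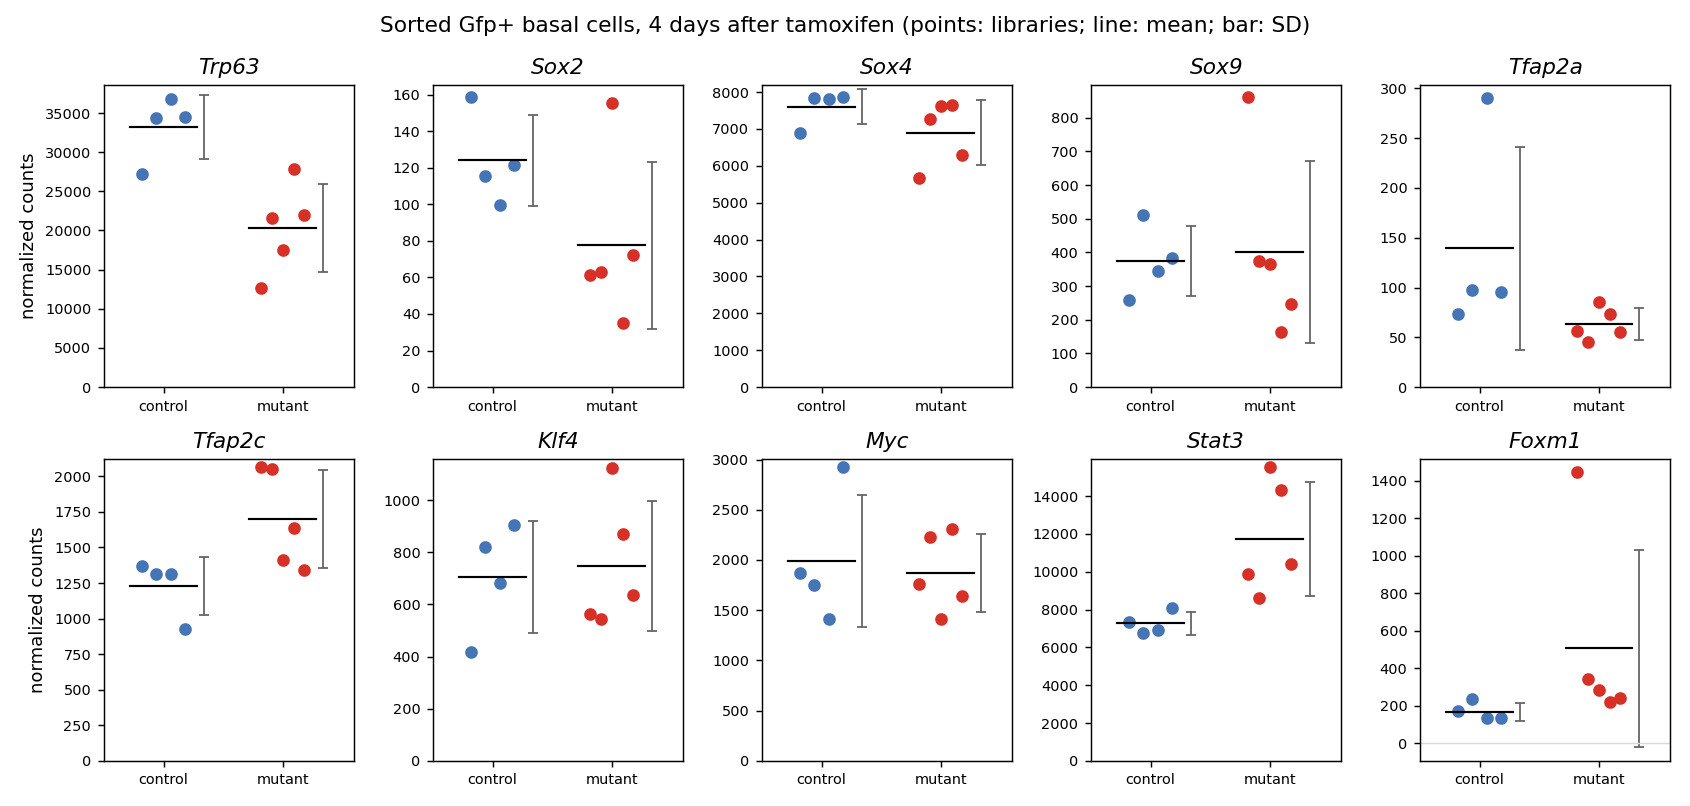
Normalized counts of each factor in Gfp-positive basal cells sorted 4 days after tamoxifen (points are libraries, horizontal lines means, bars SD; 4 controls and 5 mutants). The Stat3 points of the mutants (8609 to 15538) all lie above those of controls (6753 to 8102), and 1 mutant stands far above the rest for Foxm1 (1444).

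Sox9 (chromosome 11, 112782210 to 112787757) encodes a SOX factor of progenitors in skin, lung, gut and other epithelia. It did not separate the sorted cells, with 257, 510, 346 and 384 in controls and 861, 374, 365, 164 and 246 in mutants. The mutants held both the lowest and the highest library, and the log2 fold change was -0.08 (SE 0.42, 95% interval -1.02 to 0.85, adjusted p = 0.93). With the Y-linked score as a covariate this turned to 0.54.

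In tumors Sox9 gave the clearest separation of the 10. Basal tumors had 1288, 2659 and 3360 in the 8-library table, against 460, 282 and 824 in luminal tumors and 248 and 486 in luminal domains. Every basal tumor lay above every luminal library. Luminal tumors averaged 522 ± 276 and basal tumors 2435 ± 1054 (SD, n = 3 each), a log2 fold change of -2.25 (SE 0.60, 95% interval -3.59 to -0.90, limma adjusted p = 0.0929), and the call was made without the luminal tumor at 824 (-2.64, adjusted p = 0.0488).

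In the table of basal tumors and all luminal domains, Sox9 stood at 1359, 2750 and 3505 in the former and at 265, 527 and 482 in the latter. The lowest basal tumor thus exceeded the highest domain, and the log2 fold change was -2.53 (SE 0.50, 95% interval -3.70 to -1.37, limma adjusted p = 0.0468). This call was lost when any 1 of the 6 libraries was left out, with log2 fold changes of -2.93 to -2.22 and adjusted p of 0.0818 to 0.147, and also without the filter on low values (adjusted p = 0.0740) or without a variance trend (adjusted p = 0.110). Basal-like domains had 218, 942 and 735 against 269, 542 and 495 in luminal domains. Here the groups overlapped at both ends (0.35, SE 0.66, adjusted p = 0.984). Over the 8 tumor libraries Hs2st1 (Pearson r 0.98), Wtip (0.97) and Htra4 (0.96) followed Sox9 most closely, and over the sorted libraries Fadd (0.95), Fignl2 (0.95) and H2bc21 (0.94).

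Sox2 (chromosome 3, 34649995 to 34652461), a pluripotency factor that also maintains basal cells of the airway and esophagus, varied widely within groups. Sorted controls had 159, 116, 99.6 and 122 and mutants 61.4, 63.2, 156, 34.97 and 72.2. Of the 5 mutants 4 were below all controls and 1 was near the highest, with a log2 fold change of -0.82 (SE 0.39, adjusted p = 0.262). Over the alternatives other than leaving out a library this value ran from -1.14 to -0.32. Basal tumors had 573, 2538 and 2294, luminal tumors 757, 162 and 327, and luminal domains 33.8 and 292. The basal tumor at 573 lay below a luminal tumor at 757, and the 4.35-fold lower mean on the log2 scale was not called (-2.12, SE 0.99, adjusted p = 0.293).

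Sox2 in the table of all luminal domains was counted at 36.2, 316 and 731, against 604, 2622 and 2389 in basal tumors. With all libraries the log2 fold change was the most negative of the 10 in that comparison (-2.93), with an interval from -5.51 to -0.35 (adjusted p = 0.196). It ran from -3.85 to -1.69 with a library left out, where Sox9 ran from -2.93 to -2.22. Basal-like domains had 153, 1189 and 1164 against 36.5, 323 and 748 in luminal domains (1.52, SE 1.24, adjusted p = 0.95). Each group of domains held 1 library far below its other two.

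Sox4 (chromosome 13, 28948919 to 28953699), a SOX factor of progenitor cells and of TGF-beta responses, was nearly level in sorted controls, at 6897, 7839, 7815 and 7857, and ran at 5668, 7274, 7615, 7637 and 6303 in mutants. All mutants lay below 3 of the controls, and the fourth control fell within their range (-0.15, SE 0.11, adjusted p = 0.476). Basal tumors had 3911, 5346 and 6368 and luminal tumors 1906, 1147 and 3952, whereas the luminal domains of that table stayed at 3747 and 4567. The luminal tumor at 3952 passed the lowest basal tumor at 3911. The log2 fold change was -1.31 (SE 0.45, limma adjusted p = 0.173), and without that luminal tumor Sox4 was called (-1.79, adjusted p = 0.0401). In luminal domains against basal tumors it was -0.11 (SE 0.30, 95% interval -0.79 to 0.57, adjusted p = 0.866) with overlap. Basal-like domains had 2782, 6114 and 3249 against 4073, 5093 and 6265 (-0.41, SE 0.34, adjusted p = 0.95).

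Of 10 further SOX genes none was called in these comparisons. At 4 days 9 of them were tested and 5 were negative, and in luminal tumors all 10 were tested and 7 were negative against basal tumors.

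**Figure D3:**
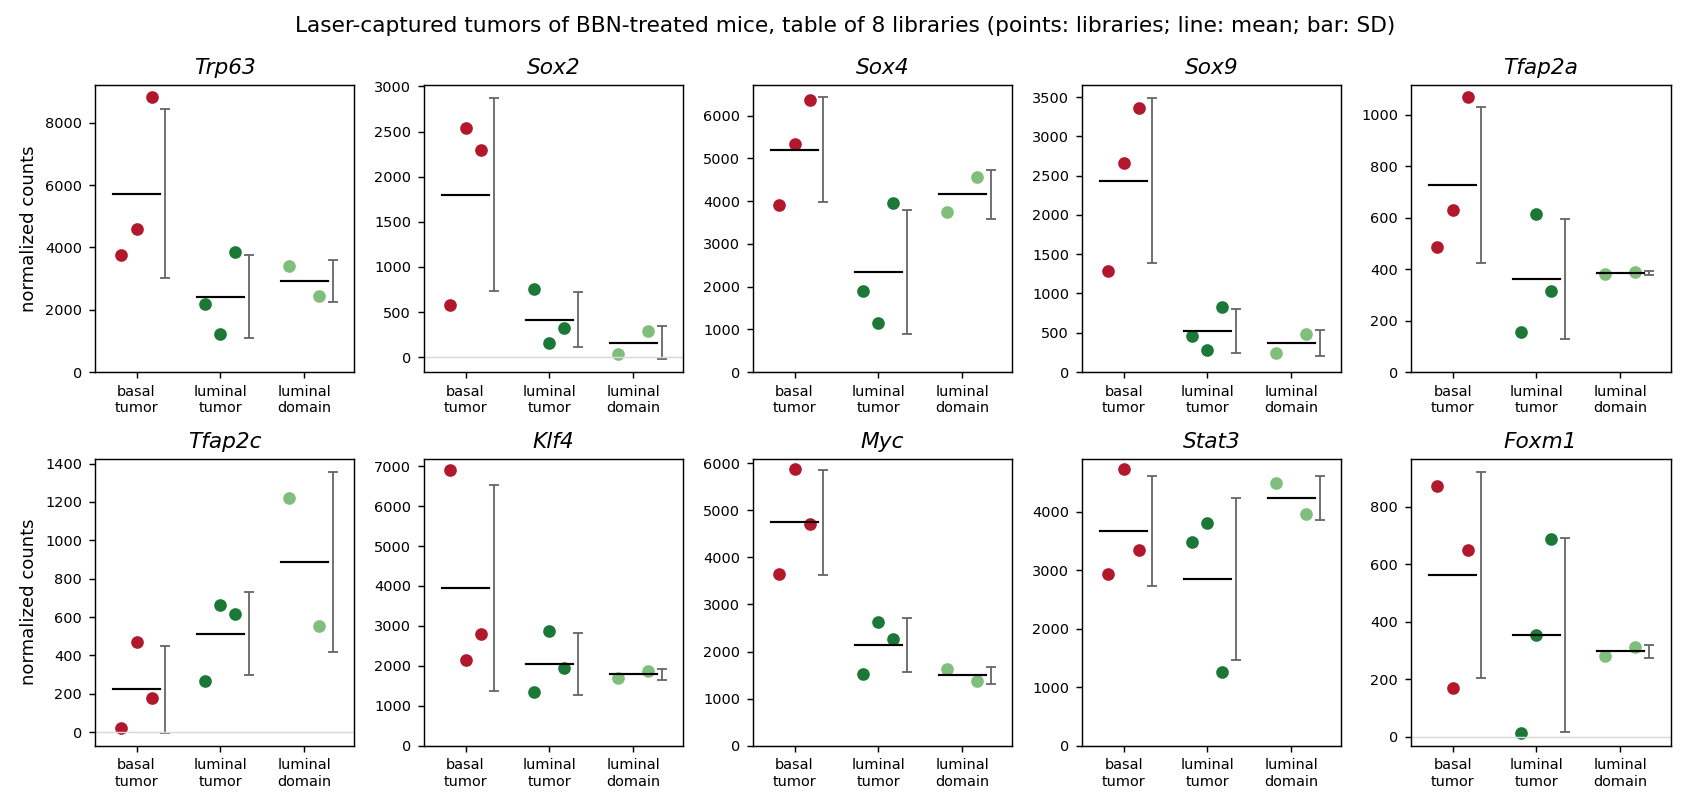
Normalized counts of each factor in the table of 8 laser-captured tumor libraries (points are libraries, lines means, bars SD; 3 basal tumors, 3 luminal tumors and 2 luminal domains). For Sox9 and Myc the basal tumors (from 1288 and 3649 upwards) lie above all luminal libraries, while Tfap2c has its lowest library among basal tumors (22.9).

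The AP-2 factors did not move as a pair. Tfap2a (chromosome 13, 40713802 to 40738238), needed for surface ectoderm, was low in sorted cells, at 73.5, 97.4, 291 and 95.2 in controls and 56.8, 44.9, 85.5, 73.6 and 55.1 in mutants. The control at 291 stood apart from the other three, and the groups overlapped with or without it. The log2 fold change of Tfap2a was -0.94 (SE 0.40, limma adjusted p = 0.222) with all libraries and -0.51 (adjusted p = 0.441) without that control. Over the alternatives other than leaving out a library it ran from -1.21 to -0.22. Tfap2c (chromosome 2, 172545678 to 172558622), which acts in epidermis and mammary luminal cells, was counted at 1372, 1310, 1315 and 928 in controls and at 2067, 2054, 1411, 1634 and 1338 in mutants. Only the mutant at 1338 fell within the control range, with a log2 fold change of 0.46 (SE 0.17, adjusted p = 0.173).

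In tumors the AP-2 pair pointed in opposite directions without a call for either. Tfap2a had 487, 630 and 1069 in basal tumors, 156, 614 and 315 in luminal tumors and 381 and 390 in luminal domains (luminal against basal tumors -1.15, SE 0.68, adjusted p = 0.408). Tfap2c had 22.9, 469 and 179 in basal tumors, 267, 661 and 614 in luminal tumors and 1220 and 555 in luminal domains (1.92, SE 1.07, adjusted p = 0.38). Both luminal domains exceeded all basal tumors in Tfap2c in this table, but the third domain, present only in the other tables, had 163 there and lay within the basal range of 23.8 to 479. In that table the log2 fold changes of luminal domains against basal tumors were -0.55 for Tfap2a (adjusted p = 0.606) and 1.95 for Tfap2c (95% interval -0.93 to 4.83, adjusted p = 0.426). With a library left out Tfap2a ran from -0.79 to -0.23 and Tfap2c from 0.75 to 2.89.

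Between the domains Tfap2a was at 635, 818 and 597 in basal-like and at 375, 394 and 641 in luminal samples (0.57, SE 0.43, adjusted p = 0.947). Tfap2c was at 1121, 347 and 247 against 1373, 641 and 176 (-0.23, SE 0.87, adjusted p = 0.989). Both overlapped. Of the related genes Tfap2b, Tfap2d and Tfap2e, Tfap2b alone passed the filter at 4 days, and none of them did in the tumor comparisons.

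Klf4 (chromosome 4, 55527137 to 55532475) is a zinc finger factor of pluripotency and of terminal differentiation in skin and gut. Its promoter is shown because luminal domains and basal tumors did not overlap in Klf4. The sequence holds the 250 bases before the RefSeq start in GRCm38.p6 (chr4:55532476-55532725, minus strand, written 5′ to 3′). Capitals mark GC boxes (GGGCGG on either strand, bound by SP and KLF factors), of which there are 4, and 1 E-box (CACGTG, the site of MYC and MAX). The first 2 GC boxes overlap by 1 base. Among 32851 promoter windows of this length 32.7% hold a GC box and 6.02% this E-box, and a match is a description only.
Klf4: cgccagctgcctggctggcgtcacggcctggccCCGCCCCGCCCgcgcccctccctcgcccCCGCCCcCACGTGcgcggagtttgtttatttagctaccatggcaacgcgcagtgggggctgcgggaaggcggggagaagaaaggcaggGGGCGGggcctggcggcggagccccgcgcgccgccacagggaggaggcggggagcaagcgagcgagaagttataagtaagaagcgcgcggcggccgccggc

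Klf4 in sorted cells was counted at 417, 822, 681 and 904 in controls and at 562, 545, 1124, 872 and 635 in mutants, with overlap (0.08, SE 0.28, 95% interval -0.54 to 0.70, adjusted p = 0.892). In the smaller deposited table of 3 and 3 libraries it was -0.12, and over all alternatives other than leaving out a library it ran from -0.12 to 0.78. Basal tumors had 6905, 2150 and 2789, luminal tumors 1346, 2883 and 1937 and luminal domains 1692 and 1883 in the 8-library table. Luminal tumors overlapped with basal tumors (-0.82, SE 0.49, limma adjusted p = 0.409).

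In the table of all luminal domains Klf4 stood at 1820, 2051 and 1796, closely together, below basal tumors at 7317, 2234 and 2922. The groups were apart by a small margin (2051 and 2234), and the log2 fold change of -0.94 (SE 0.45, adjusted p = 0.283) became -0.44 without the basal tumor at 7317. Basal-like domains had 1975, 1930 and 2342 against 1836, 2096 and 1834, with a log2 fold change of 0.11 (SE 0.24, adjusted p = 0.986). Among 8 other KLF genes none was called in any of the 4 comparisons.

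The list of other stem and progenitor genes held 10 members, of which 6 were tested at 4 days. Cd44, an adhesion receptor of basal cells, rose in mutants, from 4527 to 5651 in controls to between 7372 and 10465 (0.76, SE 0.11, limma adjusted p = 0.0116), the only call, against 1.77% of all genes called higher. Ly6d, a surface protein of basal and progenitor cells, rose in luminal tumors, from 76125 to 193089 in basal tumors to between 469341 and 838778 (2.49, SE 0.53, adjusted p = 0.0491), again the only call, against 1.26% of all genes called higher. Of the 6 tested, 3 were positive and 3 negative at 4 days, and 2 were positive and 4 negative in luminal tumors, with a median of -0.46 there. Cd44 in luminal against basal tumors had a log2 fold change of -1.12 (SE 0.32, adjusted p = 0.11).

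Myc (chromosome 15, 61985341 to 61990361) encodes a basic helix-loop-helix factor that raises ribosome building and nucleotide synthesis in growing cells. In sorted cells it stood at 1869, 1752, 1411 and 2928 in controls and at 1759, 2233, 1407, 2310 and 1637 in mutants. The groups covered nearly the same range (-0.06, SE 0.22, 95% interval -0.55 to 0.42, adjusted p = 0.897). Basal tumors had 3649, 5865 and 4709, against 1517, 2637 and 2272 in luminal tumors and 1626 and 1368 in luminal domains. Every luminal library was below every basal tumor, with a log2 fold change for luminal tumors of -1.16 (SE 0.35, 95% interval -1.94 to -0.37, limma adjusted p = 0.129).

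Luminal domains had Myc at 1762, 1501 and 2721 in their table with basal tumors, which stood at 3898, 6142 and 4972. The groups were again apart, at 1995 ± 642 and 5004 ± 1123 (SD, n = 3 each), and the log2 fold change was -1.35 (SE 0.33, 95% interval -2.12 to -0.58, adjusted p = 0.0819). Basal-like domains had 2417, 3004 and 3169, and luminal domains 1792, 1547 and 2801 in their shared table. The luminal domain at 2801 entered the basal-like range, with a log2 fold change of 0.52 (SE 0.30, adjusted p = 0.935).

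Of 20 MYC target genes, which serve ribosome and nucleotide synthesis, 13 were positive at 4 days with a median of 0.06 and none was called. In luminal tumors 19 were negative against basal tumors (54% of all genes were) with a median of -0.78, again with none called. With a library left out that median ran from -1.18 to -0.43, with 0 to 1 called. In luminal domains 17 were negative (49.6% of all genes were), with a median of -0.94, and 3 nucleolar genes fell (0.824% of all genes were called lower). These were Nop58 (-1.51, SE 0.27, limma adjusted p = 0.0374), Npm1 (-1.49, SE 0.31, adjusted p = 0.0499) and Ncl (-1.32, SE 0.27, adjusted p = 0.0488). No target was called in that comparison when any 1 library was left out, except without the basal tumor highest in Myc, where 3 were called. In basal-like against luminal domains 16 were positive (50.7% of all genes were), with a median of 0.22 and no call. With a library left out 10 to 16 were positive there, and the median ran from 0.061 to 0.37.

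Among 10 genes of the MYC and MAX network 1 was called higher in luminal tumors, against 1.26% of all genes. This was Mycl, a MYC paralog, which rose there, opposite in sign to Myc itself. It ranged from 95.3 to 1140 in basal tumors and from 2861 to 5228 in luminal tumors (3.55, SE 0.76, limma adjusted p = 0.0494). In luminal domains Mycl was at 3.40 (SE 0.80, adjusted p = 0.0729). No other gene of this network was called.

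**Figure D4:**
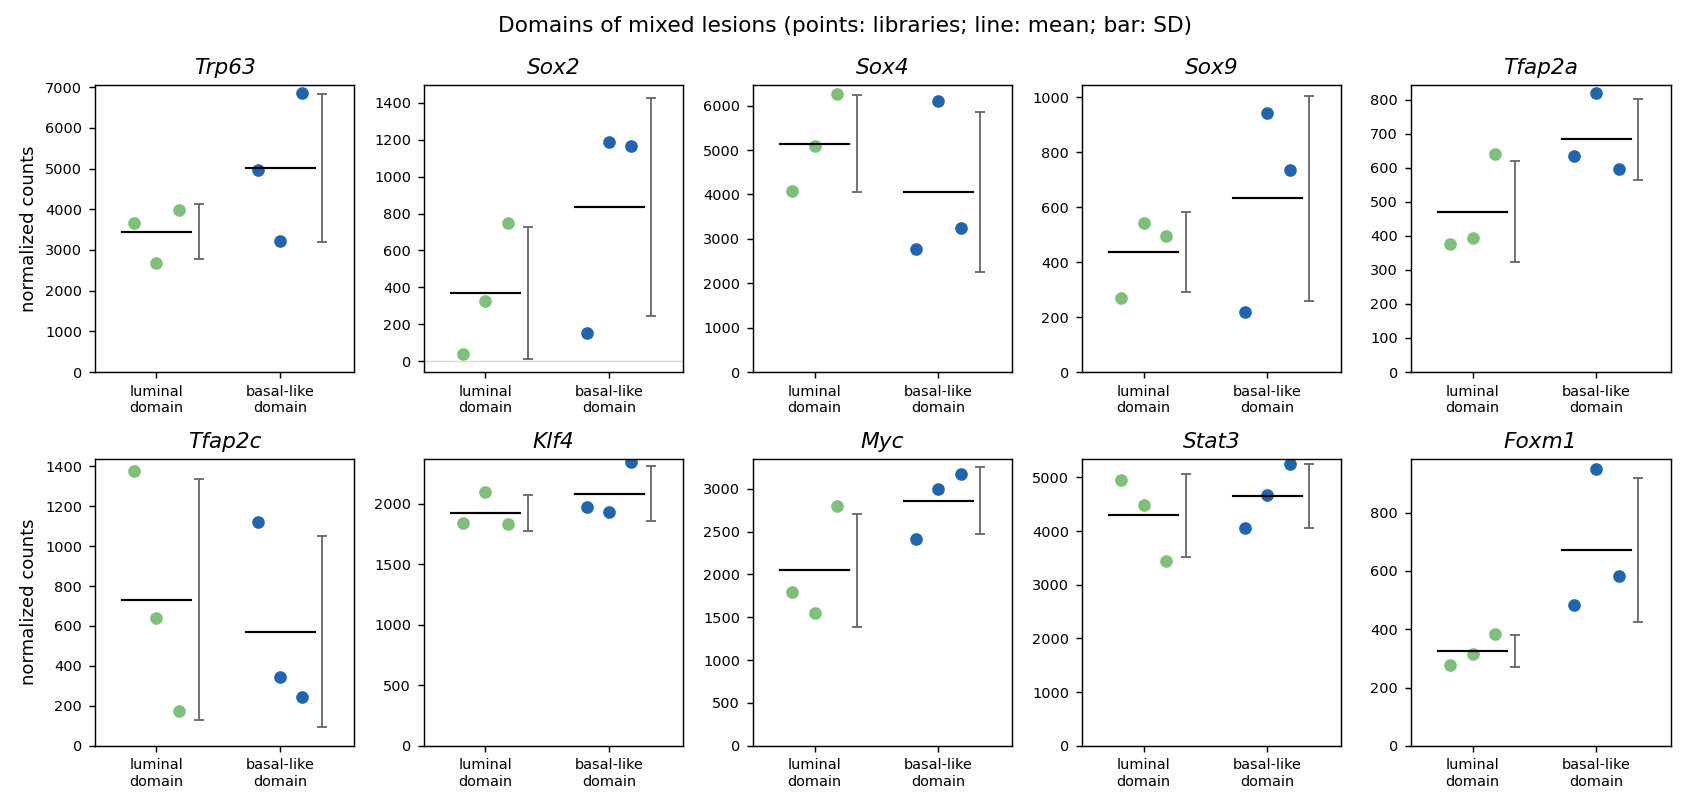
Normalized counts of each factor in luminal and basal-like domains of mixed lesions (points are libraries, lines means, bars SD; 3 libraries each). Foxm1 is the only factor whose domains do not overlap (276 to 383 and 483 to 951), and for Klf4 and Stat3 the means nearly coincide.

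Stat3 (chromosome 11, 100886806 to 100939594) was the factor that separated the sorted cells, which is why its promoter is shown. The sequence gives the 250 bases before a RefSeq start in GRCm38.p6 (chr11:100939541-100939790, minus strand, written 5′ to 3′). Capitals mark the single GC box (GGGCGG), 69 bases before that start. Neither strand of this window holds the PPAR half-site AGGTCA (in 14.0% of windows) or the STAT site TTCNNNGAA (in 7.02%), which says only that these letters are not in it.
Stat3: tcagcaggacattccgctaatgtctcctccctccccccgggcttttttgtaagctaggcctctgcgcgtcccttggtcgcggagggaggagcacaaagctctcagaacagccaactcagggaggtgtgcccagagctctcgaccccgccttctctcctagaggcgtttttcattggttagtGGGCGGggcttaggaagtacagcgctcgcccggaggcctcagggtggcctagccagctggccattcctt

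Stat3 was counted at 7336, 6753, 6896 and 8102 in controls and at 9861, 8609, 15538, 14324 and 10422 in mutants. All 5 mutants lay above all 4 controls. The means were 7271 ± 607 (SD, n = 4) and 11751 ± 3007 (SD, n = 5), a log2 fold change of 0.66 (SE 0.17, 95% interval 0.27 to 1.04, limma adjusted p = 0.0723). Stat3 was called with array weights (0.78, adjusted p = 0.0199) and without the mutant at 8609 (0.76, adjusted p = 0.0363). With the Y-linked score as a covariate it was 0.65 (adjusted p = 0.547).

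In tumors Stat3 overlapped in each comparison with basal tumors. It had 2927, 4729 and 3338 in basal tumors, 3472, 3799 and 1264 in luminal tumors and 4495 and 3961 in luminal domains. The luminal tumor at 1264 was the lowest library, and without it the log2 fold change went from -0.49 (SE 0.45, adjusted p = 0.607) to 0.017. Both luminal domains of this table exceeded all luminal tumors (0.72, SE 0.51, adjusted p = 0.998), the only factor to do so, against 10.7% of genes. No gene was called there by limma (0% of 16640), 761 (4.57%) had an unadjusted p under 0.05, and 7 were called without a variance trend.

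In the table of all luminal domains Stat3 stood at 4823, 4305 and 3306 against 3095, 4903 and 3489 in basal tumors, a log2 fold change of 0.12 (SE 0.30, 95% interval -0.56 to 0.81, limma adjusted p = 0.846) that turned to -0.013 with quantile normalization and to -0.026 with upper-quartile scaling. Basal-like domains had 4053, 4667 and 5251, and luminal domains 4959, 4482 and 3439 (0.13, SE 0.24, adjusted p = 0.984).

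Other genes of the STAT3 pathway were measured as cytokines, receptors, kinases and inhibitors (13 genes), as the other STAT genes (6) and as targets (12). No gene of the first 2 lists was called in any comparison. At 4 days 8 of the 11 targets tested were positive (50.5% of all genes were), with a median of 0.40 and none called. With a library left out that median ran from 0.13 to 0.55, again with none called. In luminal tumors 9 of 11 were negative (54% of all genes), with a median of -0.36 and none called. With a library left out this median ran from -1.07 to -0.35, with 0 to 2 called. In luminal domains 5 of 11 were negative (49.6% of all genes) and, against 0.824% of genes called lower, Timp1, an inhibitor of metalloproteases that stromal cells also make, fell (-3.61, SE 0.70, adjusted p = 0.0443), from 1427 to 9196 in basal tumors to between 236 and 478. No STAT3 target was called there when any 1 library was left out, except without the basal tumor highest in Stat3, where 1 was called.

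Foxm1 (chromosome 6, 128362994 to 128375886) encodes the forkhead factor of G2 and mitosis. Sorted controls had 170, 237, 136 and 133 and mutants 1444, 346, 282, 221 and 239. Every mutant was above the control mean of 169, and 1 mutant had over 4 times the count of the next. The groups overlapped between 221 and 237, with a log2 fold change of 1.19 (SE 0.51, 95% interval 0.05 to 2.32, limma adjusted p = 0.222), which was 0.70 without the mutant at 1444. That library was also the lowest in Trp63 and Sox4 and the highest in Sox9 and Fabp4 among the mutants.

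In tumors Foxm1 was spread widely, at 871, 169 and 648 in basal tumors, 14.7, 355 and 690 in luminal tumors and 282 and 313 in luminal domains. The luminal tumor at 14.7 was the lowest of all, and the log2 fold change of -1.55 (SE 1.35, 95% interval -4.59 to 1.49, adjusted p = 0.587) became 0.11 without it. In the table of all luminal domains these had 291, 327 and 400, and basal tumors 886, 169 and 652 (-0.45, SE 0.74, adjusted p = 0.771). Basal-like domains had 483, 951 and 581 against 276, 314 and 383 in luminal domains. The lowest basal-like domain thus exceeded the highest luminal domain, with means of 672 ± 247 and 324 ± 54.5 (SD, n = 3 each) and a log2 fold change of 1.00 (SE 0.48, 95% interval -0.10 to 2.10, limma adjusted p = 0.935).

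FOXM1 target genes, 14 genes of mitosis, had a single sign in each comparison but that of luminal domains with luminal tumors. At 4 days all 14 were positive (50.5% of all genes were), with a median log2 fold change of 2.22, and all 14 had an unadjusted p under 0.05 (11.8% of genes on the higher side). Kif20a, a kinesin of cell division, rose from between 85.2 and 478 in controls to between 537 and 2353 in mutants (2.25, SE 0.51, limma adjusted p = 0.0486) and was the only call, against 1.77% of genes called higher. All 14 stayed positive whichever library was left out, with medians of 1.73 to 2.67 and 0 to 3 calls. There were 3 calls without the control at 237 for Foxm1, 2 without the mutant at 239, and 0 without any other library. Without the mutant at 1444 for Foxm1 the median was 1.86 and none was called. Levels of fibroblast markers in these sorted cells and the Y-linked score differed between the same groups, as given above. The 6 smooth muscle markers were also all positive, and 4 had an unadjusted p under 0.05. Of these 6, 3 did not overlap, against 4.67% of genes that were higher without overlap. The 6 summed to between 174 and 1042 in controls and between 410 and 2719 in mutants. The part of these in the result was not tested.

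Against basal tumors all 14 FOXM1 targets were negative in luminal tumors (median -1.85, with 54% of all genes negative) and in luminal domains (median -2.14, with 49.6% negative). Of all genes 0.938% and 0.824% were called lower in these comparisons. In luminal tumors Top2a, the topoisomerase of chromosome segregation, fell (-2.81, SE 0.53, limma adjusted p = 0.0364), from 6678 to 11565 to between 639 and 2642. In luminal domains 5 fell, namely Top2a (-2.84, SE 0.33, adjusted p = 0.0203), Cenpf (-2.35), Birc5 (-2.28), Cdc20 (-2.28) and Ube2c (-2.08), all genes of chromosome segregation or mitotic protein turnover. Of 12 partners and regulators of FOXM1, Ccna2 (-2.65, SE 0.38, adjusted p = 0.0258) and Cdk1 (-2.05, SE 0.38, adjusted p = 0.0392), a cyclin and a kinase that activate it, fell in luminal domains. All 14 targets were negative in each fit with 1 library left out. Their median then ran from -2.87 to -1.12 in luminal tumors and from -2.28 to -1.89 in luminal domains. Their calls ran from 0 to 9 in luminal tumors and from 0 to 5 in luminal domains. The 9 calls came without the luminal tumor at 690 for Foxm1, and there were 0 without any other library of that comparison. In luminal domains 5 were called without the basal tumor at 169 for Foxm1, 1 without the basal tumor at 652, and 0 without any other library.

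In basal-like against luminal domains all 14 FOXM1 targets were positive (50.7% of all genes were), with a median of 1.18. None was called, 9 had an unadjusted p under 0.05 (2.59% of genes on the higher side), and 7 did not overlap between the domains (5.62% of genes on the higher side). Top2a ranged from 1145 to 1732 in luminal and from 3021 to 3610 in basal-like domains (1.17, SE 0.26, adjusted p = 0.651). Leaving out 1 library left 13 or 14 of them positive. The summed fibroblast markers were 5520 to 32698 in luminal and 14142 to 104544 in basal-like domains, and the summed smooth muscle markers 1440 to 1921 and 1929 to 7195. Their part was not tested.

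In luminal domains against luminal tumors, the comparison of 2 and 3 libraries in which limma called no gene, the FOXM1 targets had no single sign, with 3 of 14 positive (54.1% of all genes were) and a median of -0.17. Of the 20 p63 targets 19 were positive there, with a median of 1.35 against 0.083 for all genes, and 8 had an unadjusted p under 0.05 on the higher side (2.97% of genes). The MYC targets had 6 of 20 positive and a median of -0.23, and the STAT3 targets 10 of 11 and a median of 0.52. Markers of other cell types moved in the same comparison, with none called. Positive were all 7 fibroblast markers (median 3.22), all 6 endothelial (3.59), 5 of 6 smooth muscle (2.24) and 7 of 8 leukocyte markers (0.93). All 7 basal urothelial markers were positive too (median 1.32), and 5 of 10 luminal ones. The part of these cells in the result was not tested.

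**Figure D5:**
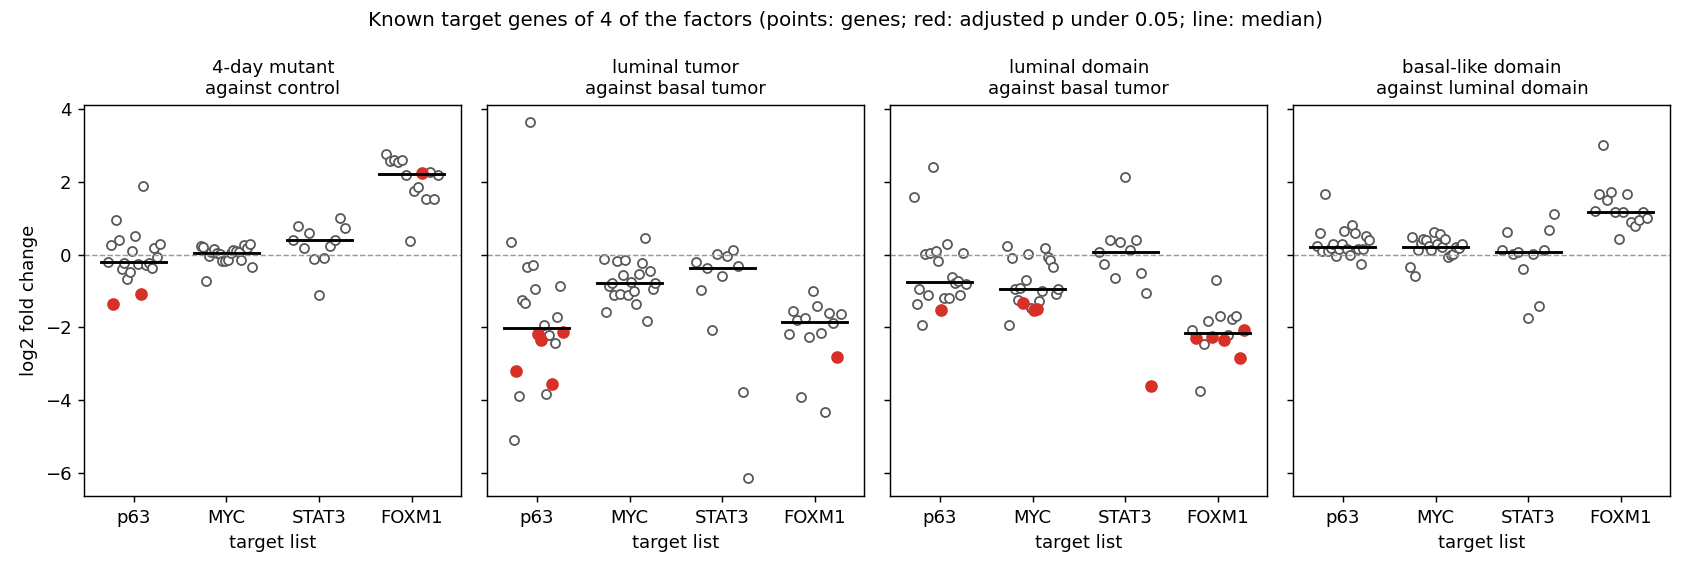
Log2 fold changes of known target genes of p63 (20 genes), MYC (20), STAT3 (11 tested) and FOXM1 (14) in 4 comparisons; points are genes, red points have a limma adjusted p under 0.05, and lines are medians. The FOXM1 targets lie above 0 at 4 days and in basal-like domains (medians 2.22 and 1.18) and below 0 in both comparisons with basal tumors.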

How the data were processed

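The 10 factors and all gene lists were chosen with earlier results of these data known. Per the study's methods and labels, the authors estimated transcripts with kallisto 0.44.0, summed them to genes with tximport and normalized each table with DESeq2 1.18. The deposited values are a signal of normalized counts whose factors differ by gene, so whole reads could not be recovered. The submitters' processing notes name the builds GRCm38 and GRCh38 with no role given. Comparisons were made within each of the 5 deposited tables used, since every table had been normalized separately. The 8 columns of the 1-month BBN table were not used, since their names could not be tied to a group, nor were the authors' fold changes and p-values.

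A gene was tested if the number of libraries with 10 or more normalized counts reached the size of the smaller group. Tests were run with limma 3.58.1 in R 4.3.3 (lmFit, eBayes with trend) after adding a pseudocount of 1 and taking log2, which understates changes of low genes. Tumors and domains of the 8-library table were fitted as 3 groups. The genes named are the 10 factors, up to 4 called genes per list and comparison by size (1 more is named in 2 places after its value was seen, likewise Top2a between domains and Cd44 in tumors), Pparg and Fabp4, and the 3 genes most like Trp63 and Sox9. On simulated data 87.5% of genes changed 4-fold were recovered in the 4-day design (16064 genes), 10.4% for luminal against basal tumors (14742 genes), 6.12% for luminal domains (14396 genes) and 27.7% between domains (14345 genes). Alternatives were other pseudocounts (0.5, 5), filters (none, 50), no trend, robust fits, array weights, quantile and upper-quartile scaling, other tables or groupings, and each library left out. The Y-linked covariate and the list counts without a library were chosen after seeing the data. Promoters come from RefSeq (GRCm38.p6), where 5 of the 10 factors matched (Sox2, Sox4, Tfap2a, Klf4 and Stat3). Promoters of Trp63, Sox9, Tfap2c, Myc and Foxm1 were not used here. Plots used matplotlib 3.10.9 and pandas 2.3.3 under Python 3.11.15.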

Additional observations from a re-analysis of the deposited data

Results flagged for a closer look

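In 4 of the 20 sets of 4 or 5 libraries examined (each factor in the 4-day controls and mutants), 1 library stood apart from the others by a gap test that chance passes in about 1 of 20 sets. One control had 6897 normalized counts of Sox4, where the other controls ran from 7815 to 7857. Another control had 291 for Tfap2a, with the others between 73.5 and 97.4, and a further one had 928 for Tfap2c, with the others between 1310 and 1372. One mutant had 1444 for Foxm1, with the others between 221 and 346. These are 4 different libraries.

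Foxm1 also pointed in opposite directions under Pparg activation. All 5 sorted mutants lay above the control mean (log2 fold change 1.19), and all 3 luminal domains lay below the mean of the basal tumors (-0.45). One basal tumor (169) lay below all 3 domains (291 to 400), and the second value ran from -1.17 to 0.020 with a library left out. Neither comparison was called, and the difference between them was not tested. Luminal tumors were not all on the lower side, since that at 690 lay above the basal mean of 563 in their table.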

How the results depend on the processing

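Of the values of single factors under alternatives, 769 kept their direction and their side of the threshold, 7 passed it, 8 (all Sox9 in luminal domains) no longer passed it and 26 turned. At 4 days the number of called genes was 269 without a variance trend, 1054 with array weights, 147 in the smaller table and 25 with the Y-linked covariate, and 129 to 596 with a library left out. Quantile normalization called 270 higher and 287 lower genes there, against 290 and 177. Of the 10 factors 1 was called with array weights, and 0 to 1 with a library left out. For luminal against basal tumors 82 genes were called without a filter, 142 without a trend, 513 (2 of the 10 factors) with 3 against 5 libraries, 142 in the 6 libraries alone, and 3 to 813 (0 to 2 factors) with a library left out. For luminal domains 144 were called without a filter and 107 without a trend, with 0 factors in both, and 0 to 467 (0 to 0 factors) with a library left out. Without a trend 20 genes were called between domains and 7 between luminal domains and luminal tumors, and leaving out a library gave 0 to 0 and 0 to 1.

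Directions turned for Klf4 at 4 days in the smaller table (-0.12), for Sox9 at 4 days with the Y-linked covariate (0.54) and for Stat3 in luminal domains with quantile (-0.013) or upper-quartile scaling (-0.026). With a library left out, log2 fold changes crossed 0 at 4 days for 3 factors, Klf4 -0.15 to 0.22, Myc -0.21 to 0.14, Sox9 -0.41 to 0.18. They did so for luminal against basal tumors in Foxm1 -2.62 to 0.11, Stat3 -0.78 to 0.017. The same held for luminal domains against basal tumors in Foxm1 -1.17 to 0.020, Sox4 -0.29 to 0.051, Stat3 -0.015 to 0.32. It held between domains in Sox9 -0.058 to 1.00, Stat3 -0.026 to 0.24, Tfap2c -1.03 to 0.44. For luminal domains against luminal tumors it held in Foxm1 -0.74 to 1.996, Klf4 -0.40 to 0.14, Sox9 -0.94 to 0.035, Tfap2a -0.19 to 0.80, Trp63 -0.0059 to 0.83. The cause was not tested. Upper-quartile scaling moved the median of all genes from -0.11 to -0.25 in luminal tumors and from 0.0097 to -0.14 in luminal domains. No paired analysis was possible because the columns carry no replicate numbers. Luminal and basal-like domains can come from the same lesion, and the labels do not tell which columns belong together. Coupling the domains by neighbouring column numbers would be an inference. In such couples Trp63, Sox2, Myc and Foxm1 were higher in the basal-like domain each time, and the other factors went both ways. A fit with these couples was not run. Reads per library are unknown, and 3 libraries per group limit precision.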
